A study of Mus musculus with 2 samples.

Results

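The insulin-like growth factor (IGF) and growth hormone axis was followed through 10 genes in single-nucleus RNA sequencing of mouse kidney. The members were taken by symbol from the 32285 genes listed, and all 10 were found: the ligand Igf1, the receptors Igf1r and Ghr, the binding proteins Igfbp3, Igfbp4, Igfbp5 and Igfbp7, the binding-protein proteases Pappa and Pappa2, and the RNA-binding protein Igf2bp1. The study compared the remnant kidney of 5/6 nephrectomy with a sham-operated kidney. For the nephrectomy library, male T1+/+ mice that were 11 weeks old lost the right kidney, and a week later both poles of the left kidney were tied off. For the sham library, control mice had both flanks opened, the kidney exposed and the wounds closed. Their age at surgery is also listed as 11 weeks, and no other sex or genotype is given for them. Tissue was taken 4 weeks after surgery and frozen, and nuclei were captured on a 10x Genomics Chromium system. Each group was 1 library, the number of mice behind each is not given in the sources used here, and no difference between the libraries had a replicate check.

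Growth hormone from the pituitary acts through its receptor, the JAK2 kinase and the transcription factor STAT5, and one of its main products is IGF1, made in the liver and locally in other tissues. IGF1 signals through IGF1R, most of it is held by IGF binding proteins, and the proteases PAPP-A and PAPP-A2 cut some of these binding proteins and free the ligand. In the kidney the axis is known for its part in renal growth, including the enlargement of the tissue that remains after nephron loss.

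The nephrectomy library held 3299 barcodes with 28284727 unique molecular identifiers (UMIs, each counting 1 captured RNA molecule), and the sham library 3084 barcodes with 21365116 UMIs. The median depth was 6844 UMIs per barcode in the nephrectomy library and 5140 in the sham library, so shares of nuclei with a UMI are also given after each nucleus was thinned to 1000 UMIs. After filters and removal of doublets, 3037 nephrectomy and 2796 sham nuclei were compared, and 2 barcodes occurred in both libraries. Clusters were named from marker genes, with none of the members or their pathway genes used for clustering, and a name means nuclei like that cell type. In all, 12 classes had at least 30 nuclei in each library, and markers of the kidney's tubular, glomerular and vascular cells were present. Clusters without a name held 16.6% of nephrectomy and 22.5% of sham nuclei. Levels are given as CPM, a gene's UMIs per 1000000 UMIs of the class, ratios are nephrectomy over sham, and ranges in brackets are 95% intervals that cover counting error only. A gene counted as measured with 20 UMIs over both libraries, and it was called higher or lower when its ratio passed 1.5-fold in that direction. In the most numerous class, proximal tubule-like nuclei, the 8 defining markers summed to 13155 CPM in the nephrectomy library and 13947 CPM in the sham library.

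**Figure D1:**
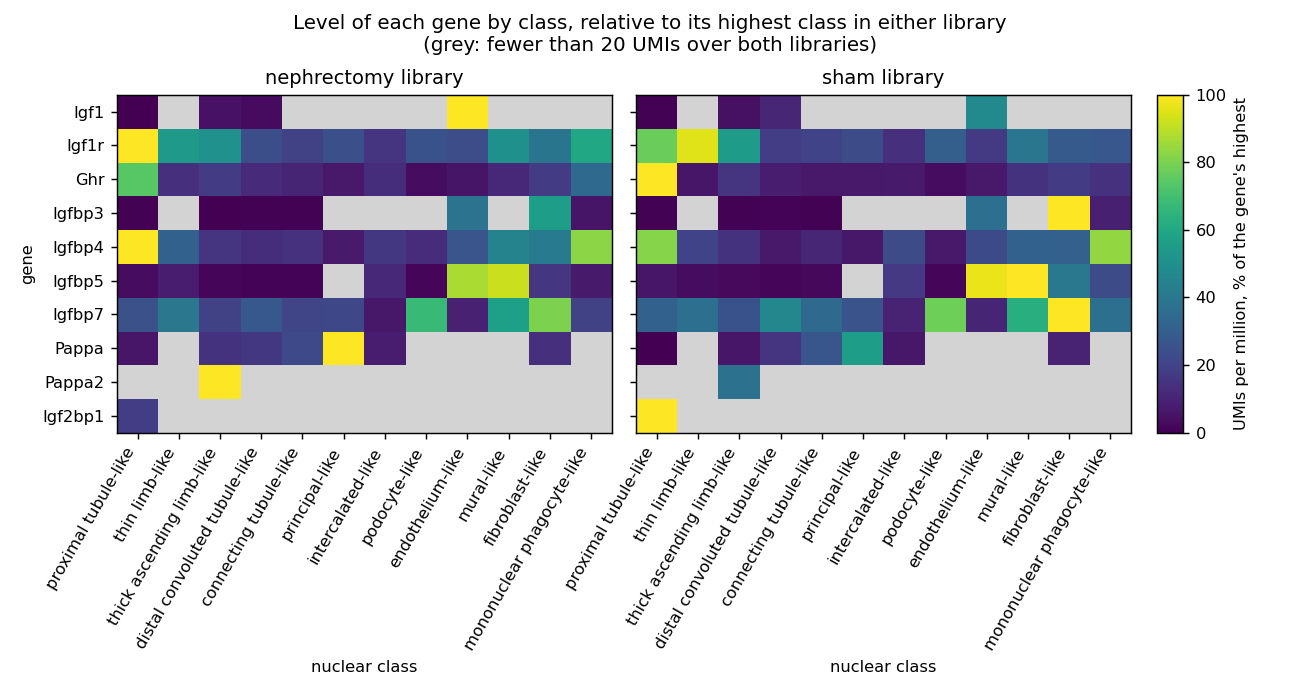
Level of each member (rows) in the 12 nuclear classes (columns) of the nephrectomy library (left) and the sham library (right), as a percentage of that gene's highest class in either library; grey marks fewer than 20 UMIs over both libraries. Pappa was highest in principal-like nuclei (660 CPM in the nephrectomy library and 369 CPM in the sham library), Ghr in proximal tubule-like nuclei (5513 and 7467 CPM), and Igf1 in endothelium-like nuclei (226 and 107 CPM).

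Across the whole libraries 2 of the 10 members were higher and 2 lower in the nephrectomy library. Among 17399 genes measured, 20% passed 1.5-fold either way, 9.5% higher and 10.5% lower. The 2 that were higher were both binding-protein proteases: Pappa had 71.7 CPM in the nephrectomy library and 29.6 CPM in the sham library, a ratio of 2.42 (2.20 to 2.66), and Pappa2 had 3.52 and 1.53 CPM, a ratio of 2.30 (1.5 to 3.63). The 2 that were lower were Igf2bp1, with 1.72 CPM in the nephrectomy library against 5.79 CPM in the sham library, and Igfbp5, with 129 CPM against 196 CPM. Their ratios were 0.297 (0.203 to 0.425) and 0.658 (0.628 to 0.690). The Igf2bp1 ratio was 0.575 (0.189 to 1.62) after thinning, an interval across 1, and 0.576 with equal weight for the clusters held by both libraries. The Igfbp5 ratio was not past the bound under 5 of 11 alternatives, among them thinning (0.714) and equal weight for the clusters held by both libraries (0.856). The other 6 members lay between the bounds. In whole-library sums, a change in the share of a cell type and a change in RNA per nucleus cannot be told apart, so the members are described by class.

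Igf1 (ENSMUSG00000020053; GRCm38 chromosome 10, 87858265 to 87937042, plus strand), the main circulating growth factor of the axis, was the only ligand of the pathway list with enough UMIs to measure. Igf2 had 0 UMIs in the nephrectomy library and 4 in the sham library. Endothelium-like nuclei had the highest level of the 12 classes in both libraries and carried 210 of the 324 nephrectomy UMIs and 81 of the 184 sham UMIs. Igf1 had 226 CPM in nephrectomy and 107 CPM in sham endothelium-like nuclei, a ratio of 2.11 (1.63 to 2.76). It was 1 of 7 members measured there and the only one past the bound, while 21.2% of 9125 genes passed it in this class. In this class 210 of 210 nephrectomy and 80 of 81 sham Igf1 UMIs lay in a single cluster, cluster 3, of 231 nephrectomy and 212 sham nuclei. Taken as a whole, cluster 3 passed the naming rule for all 9 endothelial markers, as did clusters 21 and 25 of the class.

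The share of endothelium-like nuclei with an Igf1 UMI differed less than the summed level. It was 17.8% (46 of 259 nuclei) in the nephrectomy library and 14.3% (34 of 237) in the sham library, and 10.7% and 8.26% after thinning. In the proximal tubule-like class, at a greater median depth (10676.5 UMIs against 3243 in nephrectomy, and 9523 against 2837 in sham), the shares were 0.820% and 1.12%. Nephrectomy nuclei with the transcript held more of it, a mean of 4.57 UMIs against 2.38 UMIs in sham nuclei. At least 5 Igf1 UMIs were found in 16 nephrectomy and 6 sham nuclei, and the 5 highest nuclei held 44.3% and 37% of the UMIs. The ratio was 1.70 (1.00 to 2.95) after thinning. It was under the bound, at 1.32, with doublets kept and at 1.33 with only nuclei of at least 1000 genes.

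Outside the endothelium Igf1 was sparse. Proximal tubule-like nuclei held 9 nephrectomy and 15 sham UMIs (0.684 and 1.39 CPM). The level estimated for free RNA in that class was 1.44 CPM in the nephrectomy library and 1.06 CPM in the sham library, so the ratio of 0.494 (0.191 to 1.20) was not readable as expression. Distal convoluted tubule-like nuclei held 15 nephrectomy and 28 sham UMIs, a ratio of 0.287, but 12 of the sham UMIs came from 1 nucleus, and the thinned ratio was 0.883 (0.149 to 6.03). Mural-like nuclei, the pericytes and smooth muscle of vessels, held 13 nephrectomy and 2 sham UMIs, of which 6 were in 1 nephrectomy nucleus. The gene overlaps the antisense gene Igf1os at its start, and whether counting used strand is not given in the sources used here.

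Igf1r (ENSMUSG00000005533; chromosome 7, 67952827 to 68233668, plus strand), the tyrosine kinase receptor of IGF1, was measured in all 12 classes. In proximal tubule-like nuclei it had 2506 CPM in the nephrectomy library and 1931 CPM in the sham library, a ratio of 1.3 (1.28 to 1.32). The difference was of like size in each of the 4 proximal tubule-like clusters: ratios were 1.23 in cluster 0, 1.16 in cluster 2, 1.19 in cluster 4 and 1.25 in cluster 8, although the interval in cluster 4, with 10 nephrectomy nuclei, reached below 1 (0.962 to 1.47). A UMI was found in 97.9% of nephrectomy and 96.0% of sham nuclei, and in 84.4% and 75.8% after thinning. The counting interval lay above 1 in 6 of the 12 classes, below 1 in 3 and across 1 in 3. Those above included endothelium-like nuclei (593 CPM in nephrectomy and 422 CPM in sham, ratio 1.4), fibroblast-like nuclei (976 and 710 CPM, ratio 1.38) and distal convoluted tubule-like nuclei (603 and 457 CPM, ratio 1.32). The free RNA estimate of endothelium-like nuclei was 342 CPM in the nephrectomy and 430 CPM in the sham library, so that the sham level there was at its estimate and the nephrectomy level above it.

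Past the 1.5-fold bound, Igf1r was higher in mononuclear phagocyte-like nuclei and lower in thin limb-like nuclei. In mononuclear phagocyte-like nuclei, 40 in the nephrectomy and 36 in the sham library, it had 1490 CPM against 679 CPM, a ratio of 2.19 (1.73 to 2.81), where 45.6% of genes passed the bound either way, 25.5% higher and 20.1% lower. A single nephrectomy nucleus held 111 of the 312 UMIs and the 5 highest held 79.8%, and with equal weight per nucleus the ratio was 1.24. The class differed in make-up between the libraries: the 6 connecting tubule markers summed to 1628 CPM in nephrectomy and 15699 CPM in sham nuclei, with 2 and 0 at 0, the 6 distal convoluted tubule markers to 783 and 3656 CPM, with 1 and 0 at 0, and the 9 endothelial markers to 1060 and 359 CPM, with 0 and 1 at 0. The 8 proximal tubule markers summed to 7163 CPM in nephrectomy and 4831 CPM in sham nuclei, above the class's own 7 markers at 1409 and 1931 CPM. Free RNA was estimated at 19.4% of the UMIs of the class in nephrectomy and 71.3% in sham. The part of these values in any result of this class was not tested. Thin limb-like nuclei, 45 in the nephrectomy and 30 in the sham library, had 1356 CPM against 2381 CPM, a ratio of 0.569 (0.498 to 0.651), or 0.702 after thinning. In that class 39.8% of genes passed the bound. Its make-up also differed: the 7 thick ascending limb markers summed to 4573 CPM in nephrectomy and 1140 CPM in sham nuclei, the 8 proximal tubule markers to 2860 and 1335 CPM, each with 0 at 0, the 4 urothelial markers to 63.0 and 529 CPM, with 0 and 1 at 0, and the 7 thin limb markers to 1023 and 1713 CPM. Their part in any result of this class was not tested.

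Ghr (ENSMUSG00000055737; chromosome 15, 3317760 to 3583492, minus strand), the cytokine-type receptor of growth hormone, was highest in proximal tubule-like nuclei in both libraries. It had 5513 CPM in the nephrectomy library and 7467 CPM in the sham library, a ratio of 0.738 (0.731 to 0.746), with a UMI in 98.6% of nuclei of each. The level varied more between proximal tubule-like clusters than between libraries. Cluster 8, in which Slc7a13 and Cyp7b1, genes of the last segment of the proximal tubule, were highest, had 19508 CPM in nephrectomy and 19147 CPM in sham nuclei. Cluster 0, with the most Slc5a2 and Slc5a12, transporter genes of the first segments, had 2132 and 2210 CPM.

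Within 3 of the 4 clusters the Ghr ratio stood close to 1: 0.964 in cluster 0, 1.11 in cluster 4 and 1.02 in cluster 8. In cluster 2 it was 0.640 (0.621 to 0.659), with 3551 CPM in nephrectomy against 5551 CPM in sham nuclei. The libraries were spread unevenly over the clusters. Cluster 2 held 546 nephrectomy and 89 sham nuclei, while cluster 4 held 10 nephrectomy and 383 sham nuclei. With equal weight for clusters 0, 2 and 8, the ratio of the class was 0.936. That weighting left out cluster 4, which held 28652 of the 80817 sham Ghr UMIs of the class. The cluster 4 ratio rested on its 10 nephrectomy nuclei, with an interval of 0.991 to 1.24. The part of the uneven spread over clusters 2 and 4 in these ratios was not tested.

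The Ghr ratio was 0.711 (0.705 to 0.718) in the whole libraries, and its interval lay above 1 in 6 of the 12 classes and below 1 in 3. Among those above 1 but under the bound were distal convoluted tubule-like (1.498, 1.37 to 1.64), connecting tubule-like (1.48, 1.31 to 1.67) and thick ascending limb-like nuclei (1.16, 1.10 to 1.22). The part of free RNA in these ratios was not tested. Ghr was higher past the bound in 3 small classes. Intercalated-like nuclei had 976 CPM in nephrectomy and 538 CPM in sham, a ratio of 1.81 (1.57 to 2.10), mononuclear phagocyte-like nuclei 2550 and 1068 CPM, a ratio of 2.39, and thin limb-like nuclei 1048 and 447 CPM, a ratio of 2.34. In intercalated-like nuclei 26.9% of genes passed the bound either way and 13.7% were higher, and 264 of the 928 nephrectomy UMIs of Ghr lay in 1 nucleus, without which the ratio was under the bound. Intercalated-like levels stood below the free RNA estimates of 1050 CPM in the nephrectomy and 1267 CPM in the sham library, and thin limb-like levels stood at 1048 and 447 CPM against estimates of 979 and 642 CPM. For mononuclear phagocyte-like nuclei the estimates were 676 and 3386 CPM, the sham one above the measured level. The thin limb-like ratio was 1.07 after thinning.

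**Figure D2:**
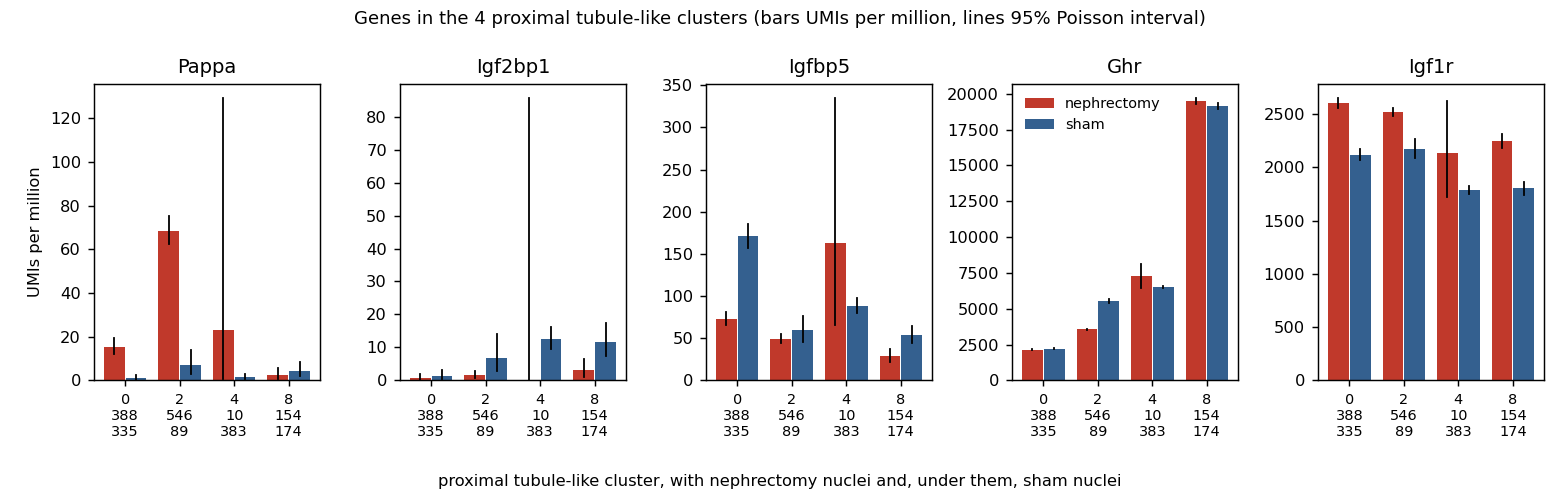
Level (CPM) of Pappa, Igf2bp1, Igfbp5, Ghr and Igf1r in the 4 proximal tubule-like clusters, nephrectomy (red) left of sham (blue); lines are 95% Poisson intervals and the rows under each cluster number give its nephrectomy and sham nuclei. Pappa stood at 68.6 CPM in nephrectomy and 6.84 CPM in sham nuclei of cluster 2 but at 2.50 and 4.42 CPM in cluster 8, whereas the Igf1r ratio lay between 1.16 and 1.25 in the 4 clusters, with an interval across 1 in cluster 4.

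Pappa (ENSMUSG00000028370; chromosome 4, 65124174 to 65357509, plus strand) codes for pappalysin-1, a secreted metalloprotease that cuts IGFBP4 and IGFBP5. Proximal tubule-like nuclei held 532 Pappa UMIs in the nephrectomy library and 25 in the sham library, or 40.4 and 2.31 CPM. The ratio was 17.5 (11.7 to 27.3). At least 1 UMI was found in 17.2% of nephrectomy nuclei (189 of 1098) and 1.94% of sham nuclei (19 of 981), and in 3.20% and 0.409% after thinning, with a thinned ratio of 8.72 (3.14 to 33.6). Endothelium-like nuclei had a Pappa UMI in 1 of 259 nephrectomy and 0 of 237 sham nuclei, which allows a share of up to 1.27%. Their median depth was lower (2837 UMIs against 9523 in sham proximal tubule-like nuclei). Their share therefore cannot set a background for the deeper class. The sham level of 2.31 CPM was under the free RNA estimate of 2.98 CPM, whereas the nephrectomy level was above its estimate of 7.28 CPM.

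Within the proximal tubule, Pappa was uneven between clusters. Cluster 2 held 458 of the 532 nephrectomy UMIs, at 68.6 CPM against 6.84 CPM in its sham nuclei (7 UMIs), a ratio of 10.0 (4.82 to 25.1). Cluster 0 had 68 nephrectomy and 3 sham UMIs, at 15.3 and 0.887 CPM. Cluster 8, the one with the most Ghr, had 5 nephrectomy and 9 sham UMIs, at 2.50 and 4.42 CPM, and its ratio of 0.566 had an interval across 1 (0.149 to 1.88). Cluster 4 held 1 nephrectomy and 6 sham UMIs. With equal weight for clusters 0, 2 and 8 the ratio was 7.11. A separate cluster with injury markers, not part of this class, held 17 Pappa UMIs in 32 nephrectomy nuclei and 0 in 3 sham nuclei, too few to compare. Summed over their 6 genes, the injury markers had 24.9 CPM in nephrectomy and 25.4 CPM in sham proximal tubule-like nuclei. The separate cluster, at 1177 CPM in its nephrectomy nuclei, was named from these same markers, so low sums in the rest were partly fixed by setting it apart. The part of injury in the Pappa ratio was not tested. Of the 9 members measured in proximal tubule-like nuclei, 1 was higher (Pappa) and 3 were lower (Igf1, Igfbp5 and Igf2bp1), while 22.4% of 14492 genes passed the bound either way, 10.9% higher and 11.4% lower.

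In the collecting duct, principal-like nuclei had the highest Pappa level of any class in both libraries. They held 422 nephrectomy and 141 sham UMIs, at 660 and 369 CPM, a ratio of 1.79 (1.47 to 2.18). A Pappa UMI was found in 85.7% of the 77 nephrectomy and 74.6% of the 67 sham nuclei, and in 33.3% and 28.4% after thinning. At least 5 UMIs were found in 30 nephrectomy and 10 sham nuclei. The ratio was 1.44 (0.864 to 2.45) after thinning and 1.43 with doublets kept, both under the bound, which 28.0% of genes passed in this class. Markers of some other classes were also higher there: the 6 connecting tubule markers summed to 4404 CPM in nephrectomy and 2682 CPM in sham nuclei, and the 7 podocyte markers to 3990 and 2370 CPM, with 0 and 4 of the 7 at 0. Others were lower: the 8 proximal tubule markers summed to 530 and 739 CPM, the 7 thick ascending limb markers to 537 and 794 CPM, and the 9 intercalated markers to 23.5 and 152 CPM. Their part in the result was not tested. In the neighbouring connecting tubule-like nuclei, Pappa had 145 CPM in nephrectomy and 176 CPM in sham, and in distal convoluted tubule-like nuclei 107 and 99.9 CPM, with intervals of the ratio across 1 in both. Thin limb-like nuclei held 15 nephrectomy UMIs, in 7 of 45 nuclei, and 0 in 30 sham nuclei, which allows a share of up to 10.0%.

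Thick ascending limb-like nuclei held 248 Pappa UMIs in the nephrectomy library and 94 in the sham library, at 95.9 and 40.6 CPM, a ratio of 2.36 (1.85 to 3.02). The share of nuclei with a UMI was 17.2% and 15%, and 4.39% and 3.81% after thinning, so the sums differed more than the shares. The 5 highest nephrectomy nuclei held 48.0% of the UMIs, 59 of them in 1 nucleus, and the 5 highest sham nuclei held 30.9%. Without the highest nucleus of each library the ratio was 1.97.

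Pappa2 (ENSMUSG00000073530; chromosome 1, 158711727 to 158980490, minus strand) codes for pappalysin-2, which cuts IGFBP3 and IGFBP5, and was found almost only in thick ascending limb-like nuclei. These held 77 of the 88 nephrectomy and 26 of the 29 sham UMIs, at 29.8 and 11.2 CPM, a ratio of 2.65 (1.68 to 4.30). All came from few nuclei, 9 of 320 in the nephrectomy library (2.81%) and 3 of 341 in the sham library (0.880%). The level per nucleus with a UMI was alike, a mean of 8.56 UMIs in nephrectomy and 8.67 UMIs in sham nuclei. With 9 and 3 nuclei, the ratio rested on how many such nuclei were captured, and its counting interval treats UMIs of 1 nucleus as independent. No Pappa2 UMI was found in distal convoluted tubule-like nuclei, 0 of 210 in nephrectomy and 0 of 139 in sham, which allows shares of up to 1.43% and 2.16%.

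The Pappa2 nuclei carried Nos1, the neuronal nitric oxide synthase that marks the macula densa, the sensing cells at the end of the thick ascending limb. A Nos1 UMI was found in 7 of the 9 nephrectomy and 2 of the 3 sham nuclei with Pappa2. Among the other thick ascending limb-like nuclei it was found in 0 of 311 in nephrectomy, which allows a share of up to 0.965%, and 2 of 338 in sham. Of the other 3 macula densa markers on the fixed list, Ptger3 was in 7 of 9 nephrectomy and 3 of 3 sham Pappa2 nuclei but also in 86.8% and 90.8% of the rest, and Ptgs2 and Avpr1a were each in at most 1. Umod, the uromodulin gene of the thick ascending limb, was lower in Pappa2 nuclei, at 383 CPM in nephrectomy and 913 CPM in sham, than in the rest, at 2321 and 3291 CPM. Pappa itself reached 883 CPM (53 UMIs in 7 of 9 nuclei) in nephrectomy and 261 CPM (4 UMIs in 1 of 3 nuclei) in sham Pappa2 nuclei, against 77.2 and 39.2 CPM in the remaining thick ascending limb-like nuclei. This look at Pappa2 nuclei was chosen after their values were seen.

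Of 9 members measured in thick ascending limb-like nuclei, the 2 proteases were higher and Igfbp3 and Igfbp5 lower, while 20.6% of 11803 genes passed the bound either way, 8.29% higher and 12.3% lower. Both binding proteins were near or under their free RNA estimates there. Igfbp5 had 25.1 CPM in nephrectomy and 41.5 CPM in sham nuclei, against estimates of 30.05 and 40.03 CPM. Igfbp3 had 5.02 and 8.65 CPM, against 13.0 and 15.3 CPM, so its estimates were above the measured levels.

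**Figure D3:**
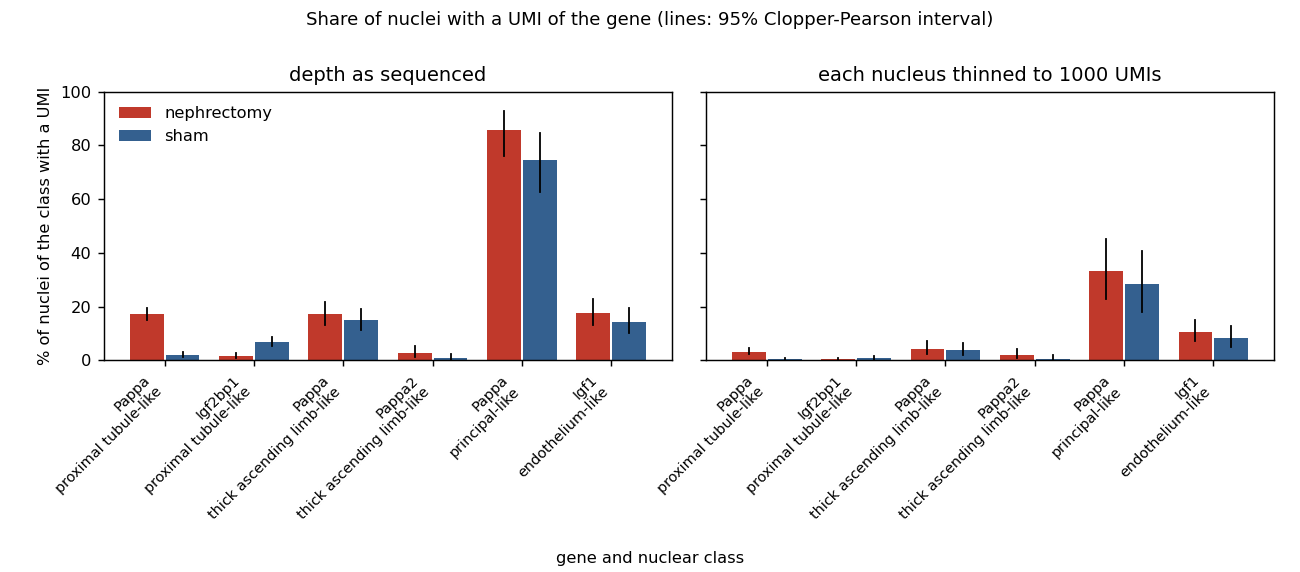
Share of nuclei of a class with at least 1 UMI of Pappa, Igf2bp1, Pappa2 or Igf1, nephrectomy (red) left of sham (blue), at the depth as sequenced (left) and after thinning each nucleus to 1000 UMIs (right), with 95% Clopper-Pearson intervals. For Pappa in proximal tubule-like nuclei the shares were 17.2% and 1.94% as sequenced and 3.20% and 0.409% after thinning; for Igf1 in endothelium-like nuclei they were 17.8% and 14.3%, then 10.7% and 8.26%.

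Among the binding proteins, Igfbp3 (ENSMUSG00000020427; chromosome 11, 7206086 to 7213923, minus strand), the main carrier of IGF1 in blood, lay mainly in fibroblast-like and endothelium-like nuclei. Fibroblast-like nuclei had 1052 CPM in the nephrectomy library (418 UMIs) and 1882 CPM in the sham library (546 UMIs), a ratio of 0.559 (0.491 to 0.636). A UMI was found in 78.1% of 64 nephrectomy and 87.1% of 62 sham nuclei, and in 51.6% and 69.4% after thinning, with a thinned ratio of 0.727 that was under the bound. Endothelium-like nuclei had 716 and 688 CPM, a ratio of 1.04 (0.928 to 1.17), and UMIs in 52.1% and 45.6% of nuclei. Igfbp3 was also lower past the bound in distal convoluted tubule-like nuclei (7.85 and 19.8 CPM, 17 and 23 UMIs, against free RNA estimates of 8.36 and 13.0 CPM) and in mononuclear phagocyte-like nuclei (105 and 168 CPM, 22 UMIs each).

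Igfbp5 (ENSMUSG00000026185; chromosome 1, 72857932 to 72874884, minus strand), a matrix-bound binding protein, was lower past the bound in 6 of the 11 classes in which it was measured and had intervals below 1 in 8. The classes come from the same libraries and share their free RNA, so this is not a count of separate observations. Fibroblast-like nuclei had 267 CPM in nephrectomy (106 UMIs) and 675 CPM in sham (196 UMIs), a ratio of 0.395 (0.309 to 0.503), with UMIs in 56.2% and 75.8% of nuclei, and 14.1% and 45.2% after thinning. Igfbp3 and Igfbp5 were the 2 of 7 members past the bound in this class, where 31.5% of genes passed it either way and 16.8% were lower. Both results rested on which nuclei counted as fibroblast-like. An unnamed low-depth cluster of 114 nephrectomy and 156 sham nuclei had fibroblast genes among its leading genes, and when such clusters were named by their best class, an alternative added after seeing the data, the ratios were 0.992 for Igfbp3 and 0.872 for Igfbp5. Endothelial markers summed to 1193 CPM in nephrectomy and 717 CPM in sham fibroblast-like nuclei, with 0 and 1 of 9 at 0, and connecting tubule markers to 991 and 531 CPM, with 1 of 6 at 0 in each. Their part in the result was not tested.

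In proximal tubule-like nuclei Igfbp5 had 54.7 CPM in nephrectomy and 105 CPM in sham, a ratio of 0.521 (0.474 to 0.573) that ran from 0.477 to 0.545 under the 14 alternatives that recomputed it. A UMI was found in 38.6% and 51.1% of nuclei, and in 5.67% and 9.71% after thinning. The free RNA estimates were 14.4 and 20.3 CPM. By cluster the ratio was 0.428 in cluster 0 (73.2 and 171 CPM), 0.828 in cluster 2 (49.4 and 59.6 CPM) and 0.542 in cluster 8 (29.0 and 53.5 CPM), with an interval across 1 only in cluster 2 among these 3 (0.629 to 1.11). The 10 nephrectomy nuclei of cluster 4 had 7 UMIs, with an interval from 0.735 to 3.83.

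Distal convoluted tubule-like nuclei (17.5 and 31.0 CPM, ratio 0.566) and connecting tubule-like nuclei (17.9 and 38.1 CPM, ratio 0.470) were also lower past the bound. Both lay near the free RNA estimates, which were 19.3 and 33.9 CPM in the distal and 15.6 and 27.2 CPM in the connecting class. The classes with the most Igfbp5 differed less. Mural-like nuclei had 1559 CPM in nephrectomy and 1694 CPM in sham (ratio 0.920, 0.782 to 1.08), and endothelium-like nuclei 1480 and 1648 CPM (ratio 0.898, 0.832 to 0.971). In intercalated-like nuclei it was carried by cluster 15, at 300.3 CPM in nephrectomy and 434 CPM in sham. Slc26a4, a gene of base-secreting intercalated cells, was among the leading genes of cluster 15, whereas Slc4a9 was among those of both intercalated-like clusters. Thin limb-like nuclei went the other way, with 131 and 56.7 CPM, a ratio of 2.31 (1.13 to 5.33), but 26 of the 52 nephrectomy UMIs lay in 1 nucleus and the thinned ratio was 0.909. Mononuclear phagocyte-like nuclei had 119 and 389 CPM, a ratio of 0.307 (0.182 to 0.504), from 25 and 51 UMIs. The free RNA estimates of Igfbp5 in that class were 26.6 and 140 CPM.

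Igfbp4 (ENSMUSG00000017493; chromosome 11, 99041244 to 99054392, plus strand), the binding protein that PAPP-A cuts best when IGF is bound, had 283 CPM in nephrectomy and 231 CPM in sham proximal tubule-like nuclei, a ratio of 1.22 (1.16 to 1.29), with UMIs in 85.4% and 74.1% of nuclei, and 25.8% and 20.7% after thinning. The ratio by cluster was 1.17 in cluster 0, 0.886 in cluster 2, 1.05 in cluster 4 and 1.63 in cluster 8. Cluster 8 had 102 CPM in nephrectomy and 62.8 CPM in sham. Igfbp4 passed the bound as higher in distal convoluted tubule-like nuclei (36.5 and 19.8 CPM, 79 and 23 UMIs), podocyte-like nuclei (22 and 5 UMIs) and thin limb-like nuclei (35 and 9 UMIs). The levels in distal convoluted tubule-like nuclei lay near the free RNA estimates of 26.6 and 28.8 CPM, and the ratio of podocyte-like nuclei was 0.577 after thinning.

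Igfbp7 (ENSMUSG00000036256; chromosome 5, 77349240 to 77408041, minus strand), a secreted protein with low affinity for IGF and a known marker of tubular cell stress, was lower in the nephrectomy library in 11 of 12 classes, with intervals below 1 in 8. As for Igfbp5, the classes come from the same libraries, so this is not a count of separate observations. In the whole libraries the Igfbp7 ratio was 0.810 (0.790 to 0.830). Past the bound were distal convoluted tubule-like nuclei, with 547 CPM in nephrectomy and 917 CPM in sham (ratio 0.597, 0.549 to 0.649), and connecting tubule-like nuclei, with 417 and 681 CPM (ratio 0.612, 0.540 to 0.695). In these classes 23% and 26.8% of genes passed the bound either way, 9.61% and 11.6% higher and 13.4% and 15.1% lower. The distal ratio ran from 0.566 to 0.648 under the 12 alternatives that recomputed it, and a UMI was found in 38.1% of nephrectomy and 56.8% of sham distal convoluted tubule-like nuclei after thinning. Intercalated-like nuclei (127 and 192 CPM, near free RNA estimates of 157 and 173 CPM) and mononuclear phagocyte-like nuclei (387 and 725 CPM) were also past it. Proximal tubule-like nuclei had 494 and 616 CPM, a ratio of 0.801 (0.774 to 0.829), and podocyte-like nuclei, among the highest, 1336 and 1548 CPM.

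**Figure D4:**
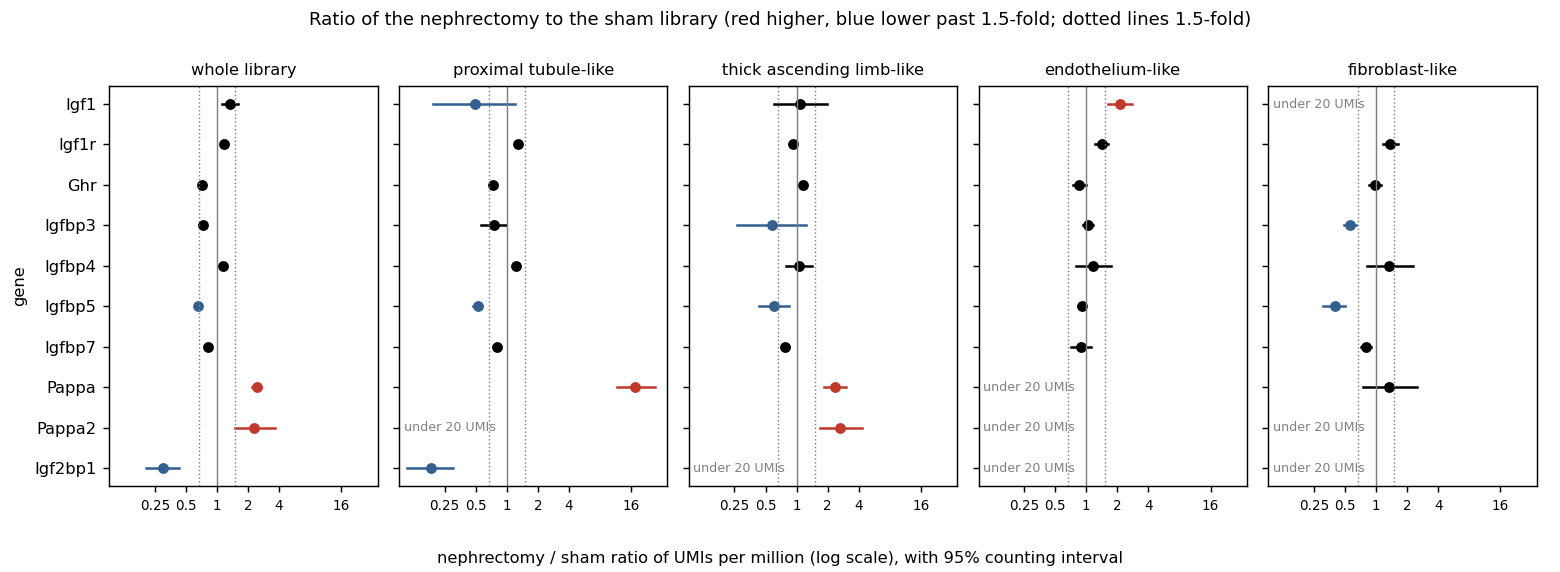
Ratio of nephrectomy to sham CPM (points, log axis) with 95% counting intervals for each member in the whole libraries and in 4 classes; dotted lines mark 1.5-fold, red and blue mark higher and lower past it. Pappa was at 17.5 in proximal tubule-like and 2.36 in thick ascending limb-like nuclei, Igf1 at 2.11 in endothelium-like nuclei, and Igfbp5 at 0.521 in proximal tubule-like and 0.395 in fibroblast-like nuclei.

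Igf2bp1 (ENSMUSG00000013415; chromosome 11, 95957163 to 96005940, minus strand) codes for a protein that binds IGF2 and other mRNAs and is known mainly from fetal tissue. It was measured only in proximal tubule-like nuclei, which held 20 UMIs in the nephrectomy library and 90 in the sham library, at 1.52 and 8.31 CPM, a ratio of 0.183 (0.107 to 0.299). A UMI was found in 1.64% of nephrectomy (18 of 1098) and 6.93% of sham nuclei (68 of 981), and no nucleus held more than 4. Endothelium-like nuclei had none in 259 nephrectomy and 237 sham nuclei, which allows shares of up to 1.16% and 1.27%. Their median depth was lower, at 3243 and 2837 UMIs against 10676.5 and 9523 in proximal tubule-like nuclei. In sham nuclei 55 of the 90 UMIs lay in cluster 4, where the 10 nephrectomy nuclei had none, and 24 in cluster 8, where nephrectomy nuclei had 6. Cluster 8 and cluster 2 had ratios of 0.255 (0.0851 to 0.639) and 0.241 (0.0852 to 0.732), and with equal weight for clusters 0, 2 and 8 the ratio was 0.269. Thinning left 4 nephrectomy and 7 sham UMIs, a ratio of 0.511 whose interval reached across 1 (0.110 to 2.01), so the difference was not detectable at that depth. Podocyte-like nuclei held 8 nephrectomy and 3 sham UMIs.

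The order of classes was described for the members with at least 500 UMIs by the genes whose log2(CPM + 1) followed theirs most closely over 24 points, 12 classes in 2 libraries, among 9040 genes. The points share library and free RNA, and the correlations are descriptions. Ghr was followed most closely by Acss2, Tet2 and Impa1 (Pearson's r from 0.93 to 0.89), Igfbp4 by Gpx3, Acaa1b and Ass1 (0.94 for each), and Igfbp5 by Calcrl, Entpd1 and Eng (0.92 to 0.90). Igfbp3 was nearest to Dapk2 (0.89), Igf1r to Trio (0.85), Igf1 to Dysf (0.84), Pappa to Ninl (0.81) and Igfbp7 to Gas1 (0.80).

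The wider pathway was described with a list of 59 genes that included the members: 5 ligands, 6 receptors, 8 binding proteins and the acid-labile subunit, 4 proteases and their inhibitors, 3 IGF2 mRNA binding proteins, 24 adaptors and genes of insulin-type signalling, and 9 genes of growth hormone receptor signalling. In the whole libraries 7 of the 44 measured genes other than members were higher, 0 were lower and 37 lay between the bounds, with a median log2 ratio of 0.17 against 0.02 for all genes. With at least 100 UMIs these were Igfbp1 at 3.22, Socs2 at 2.34, Prlr at 2.12 and Irs2 at 1.59. The Socs2 ratio was 1.3 after thinning, under the bound. The other 3, named after their values were seen, were Igfbp2 (51 nephrectomy and 12 sham UMIs), Socs3 (42 and 13 UMIs) and Stc2, a stanniocalcin that inhibits PAPP-A (70 and 17 UMIs, ratio 3.12, 1.82 to 5.66). Among those measured in proximal tubule-like nuclei, 8 of 38 were higher and 0 lower, with a median of 0.23 against 0.02. The corresponding shares of all genes were 9.5% higher and 10.5% lower in the whole libraries and 10.9% and 11.4% in proximal tubule-like nuclei.

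In proximal tubule-like nuclei 2 of the 7 measured genes of growth hormone receptor signalling were higher, both inhibitors whose transcription STAT5 is known to drive. Cish, which codes for a suppressor of cytokine signalling, had 150 nephrectomy and 39 sham UMIs, at 11.4 and 3.60 CPM, a ratio of 3.16 (2.21 to 4.63), and 3.22 after thinning. Its ratio was 5.47 in cluster 0 (43 and 6 UMIs), 1.53 in cluster 2 (80 and 8 UMIs) and 6.87 in cluster 8 (27 and 4 UMIs), with an interval across 1 in cluster 2 (0.741 to 3.67). Socs2, the suppressor that limits growth hormone receptor signalling, had 210 and 66 UMIs, at 16 and 6.10 CPM, a ratio of 2.62 (1.98 to 3.51), or 1.61 after thinning. Its ratio was 2.45 in cluster 0, 1.21 in cluster 2, with an interval across 1 (0.679 to 2.36), and 2.70 in cluster 8. Of the genes named for their role after values were seen, Jak2, the kinase of the receptor, had a ratio of 1.08 (0.950 to 1.23) and Stat5b one of 1.13 (1.07 to 1.20). Socs2 was also higher in thick ascending limb-like nuclei (32.1 and 16.9 CPM, ratio 1.90) and distal convoluted tubule-like nuclei (90.5 and 46.5 CPM, ratio 1.95), but its thinned ratio was 0.764 in both.

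The promoter of Cish is shown because STAT5 binds the motif TTCNNNGAA and the 1 promoter found for this gene held it more than once. Gab1 and Igfals also had 2 matches each, over 2 and 3 promoters, and no promoter was found for Socs2. The motif was searched on both strands, and being palindromic it reads the same on each. It occurred in 8.30% of 32851 promoters of the RefSeq table and at least 2 times in 0.457%. Promoters were found for 8 of the 10 members, of which 0 held the motif, and for 48 of the 59 pathway genes, of which 8 held it. These are counts of genes, and a gene could have several promoters (Igf2 had 4). They are therefore not comparable with the share of promoters. The sequence below is from RefSeq on GRCm38.p6, chr9:107296409-107296678, plus strand, 5′ to 3′, and capitals mark the matches, which start 1 and 12 bases from the start site. A match is a description of these letters and not a binding site.
Cish: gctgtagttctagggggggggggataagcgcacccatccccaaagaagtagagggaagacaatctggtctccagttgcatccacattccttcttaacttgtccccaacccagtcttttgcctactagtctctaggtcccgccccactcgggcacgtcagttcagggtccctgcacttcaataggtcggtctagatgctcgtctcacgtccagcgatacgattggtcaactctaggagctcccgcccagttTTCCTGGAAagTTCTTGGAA

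Of the 5 receptors measured in proximal tubule-like nuclei Prlr, the prolactin receptor, which also signals through JAK2 and STAT5, was the 1 past the bound. It had 110 CPM in nephrectomy and 44.3 CPM in sham, a ratio of 2.48 (2.23 to 2.75), with UMIs in 27.8% and 13.5% of nuclei. Most of it lay in cluster 8, with 1026 nephrectomy and 269 sham UMIs at 513 and 132 CPM, a ratio of 3.88 (3.39 to 4.46). The insulin receptor gene Insr had 367 and 275 CPM, a ratio of 1.33.

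Igfbp1, the insulin-repressed binding protein, was the binding protein with the highest ratio in proximal tubule-like nuclei, at 3.57 (2.75 to 4.69), from 308 nephrectomy and 71 sham UMIs (23.4 and 6.56 CPM). The ratio was 2.15 after thinning, 3.26 in cluster 0, 1.62 (0.967 to 2.89) in cluster 2 and 1.70 (0.696 to 4.4) in cluster 8. Of the 24 adaptor and insulin-type signalling genes 4 were higher, 0 lower and 20 between the bounds. Among those higher, Irs2, an adaptor that docks to the insulin and IGF1 receptors, had 53.3 and 26.6 CPM, a ratio of 2.0 (1.74 to 2.31). The ratio was lower within clusters, at 1.59 in cluster 0, 1.26 (0.925 to 1.75) in cluster 2 and 1.43 in cluster 8. Clusters 2 and 8 were thus under the bound, and cluster 4 held 1 nephrectomy and 69 sham UMIs. Also higher, and named after their values were seen, were the related adaptor Irs1 at 1.77 and Tsc1, an inhibitor of mTOR signalling, at 1.57. Mtor itself stood at 1.05 (1.00 to 1.11), Foxo1 at 1.33 and Foxo3 at 1.35, all chosen the same way.

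**Figure D5:**
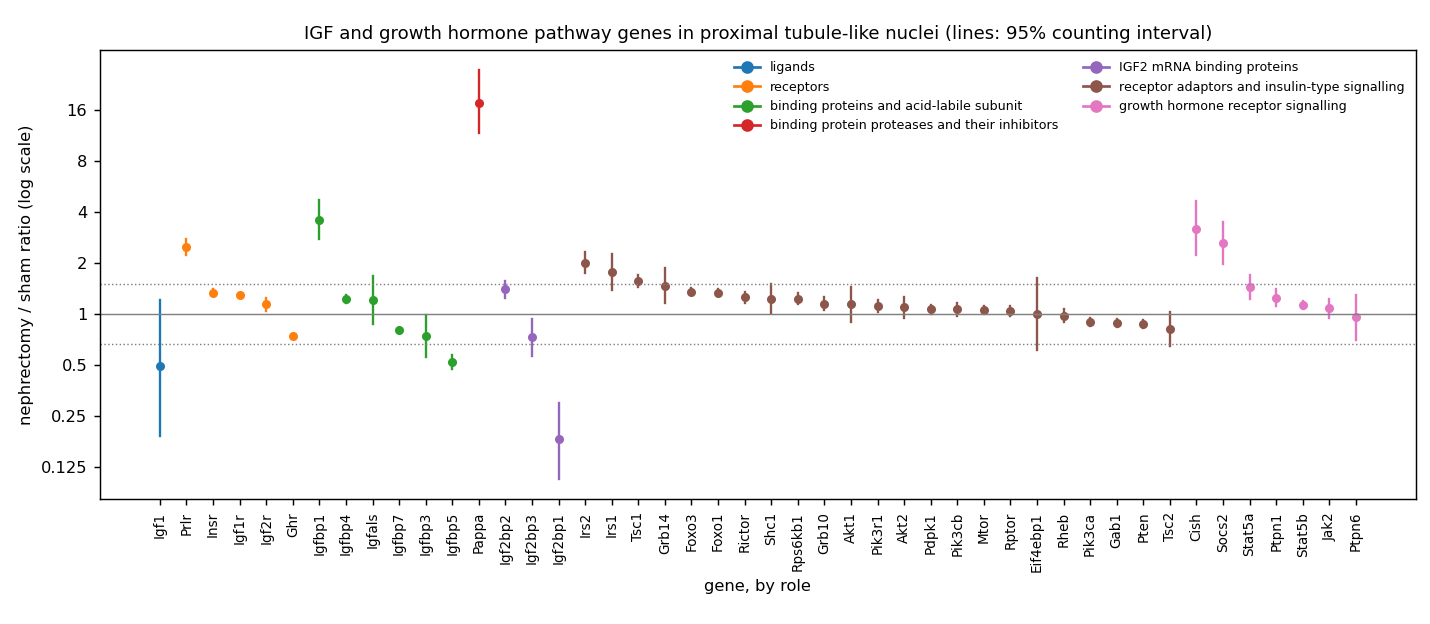
Ratio of nephrectomy to sham CPM (log axis) in proximal tubule-like nuclei for measured genes of the pathway list, members included, ordered by role and marked by colour, with 95% counting intervals and dotted lines at 1.5-fold. Pappa stood highest at 17.5, followed by Igfbp1 at 3.57 and Cish at 3.16, and Igf2bp1 lowest at 0.183.

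Pathway genes other than members also passed the bound with at least 100 UMIs in other classes. Endothelium-like nuclei had Igf2r, the receptor that clears IGF2, at 0.631 (0.431 to 0.921), with 55.9 CPM in nephrectomy and 88.5 CPM in sham. Distal convoluted tubule-like nuclei had Foxo3 at 1.65 (490 and 298 CPM). Irs1 was lower in connecting tubule-like nuclei, at 0.606 (101 and 167 CPM), and in intercalated-like nuclei, at 0.599 (531 and 886 CPM). After thinning these ratios were 0.848 and 0.753, neither past the bound. Fibroblast-like nuclei had Gab1, an adaptor protein gene, at 1.59 and Insr at 1.56, each with an interval above 1. Insr was also higher in intercalated-like (1.62), podocyte-like (2.02), mononuclear phagocyte-like (1.97) and thin limb-like nuclei (1.72). Its thinned ratio was 0.852 in intercalated-like, 1.36 in thin limb-like and 1.48 in fibroblast-like nuclei, none past the bound as higher. Gab1 went both ways, at 2.0 in intercalated-like and 0.515 (0.333 to 0.783) in mural-like nuclei. Rictor, a subunit of the mTORC2 complex, was at 1.55 in both intercalated-like and podocyte-like nuclei. Stat5b was at 1.52 in intercalated-like and 1.66 in principal-like nuclei, and Foxo1 at 2.11 in mononuclear phagocyte-like nuclei. After thinning, Stat5b in intercalated-like nuclei was at 0.779, on the other side of 1, and Foxo1 was under the bound at 1.497. Rptor, a subunit of the mTORC1 complex, was lower in podocyte-like nuclei, at 0.596 (0.427 to 0.836).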

How the data were processed

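Single-nucleus RNA sequencing was read from 1 nephrectomy and 1 sham library of frozen mouse kidney. The authors' deposited values are whole-number UMI counts per gene and barcode, made with Cell Ranger per the file headers and not normalized. How barcodes were called and whether intronic reads were counted is not given in the sources used here. The headers name version 7.0.1 and the submitters' processing notes name 7.1.0, with build mm10. Gene positions are from the GENCODE annotation of GRCm38.

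Nuclei with fewer than 200 genes or over 10% mitochondrial UMIs were left out (112 nephrectomy and 109 sham barcodes). Scrublet called 0 doublets, so the 3% of nuclei with the highest scores (85 and 80) and 3 clusters rich in them were removed, 150 and 179 nuclei in all. Nuclei of both libraries were clustered together with scanpy 1.11.5 (2000 variable genes without the pathway list, 30 components, 15 neighbours, Leiden resolution 1), without batch correction, and the 26 clusters were named from marker lists. The naming rule was revised after clusters were seen, and 4 clusters stayed unnamed, 3 of them for a median depth under 1/3 of their libraries' medians. The members and lists were chosen with earlier results of these data known.

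UMIs were summed per class and library, and ratios were given exact conditional binomial intervals, levels exact Poisson intervals and shares Clopper-Pearson intervals (scipy 1.17.1, 95%), all for counting error only. With 1 library per group there is no test. A count of 0 allows a share of 3 divided by the nuclei. Thinning kept 2773 nephrectomy and 2506 sham nuclei and left out 264 and 290. Free RNA was estimated roughly per class from markers of other classes. Some estimates stood above the measured level, so they cannot show that a signal is free RNA. Pathway genes other than members were named with at least 100 UMIs and a ratio past 1.5-fold, at most the 4 highest and 4 lowest per class. One gene of the list is counted but not reported here. Ratios were checked on simulated counts. The 15 alternatives listed at the start included TMM factors from edgeR 4.0.16, and 2 were added after seeing the data: low-depth clusters named by their best class, and the injured cluster counted as proximal tubule.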

Additional observations from a re-analysis of the deposited data

Results flagged for a closer look

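Some members had ratios past the bound in opposite directions in different classes, each with an interval that left out 1. Ghr had intervals above 1 in 6 classes and below 1 in 3, but passed the bound only as higher and is not listed here. These differences between classes were not tested, because each group is 1 library.

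Igf1 had a ratio of 2.11 in endothelium-like nuclei and 0.287 in distal convoluted tubule-like nuclei, where 12 of the 28 sham UMIs lay in 1 nucleus. Igf1r had a ratio of 2.19 in mononuclear phagocyte-like nuclei, with 111 of 312 nephrectomy UMIs in 1 nucleus, and 0.569 in thin limb-like nuclei. Igfbp5 had a ratio of 2.31 in thin limb-like nuclei, with 26 of 52 nephrectomy UMIs in 1 nucleus. It was at 0.521 in proximal tubule-like, 0.605 in thick ascending limb-like, 0.566 in distal convoluted tubule-like, 0.470 in connecting tubule-like, 0.395 in fibroblast-like and 0.307 in mononuclear phagocyte-like nuclei.

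The nuclei of unnamed clusters, which enter no class, also held a difference: Igfbp4 had 336 CPM in the nephrectomy library and 220 CPM in the sham library there, a ratio of 1.53 (1.3 to 1.8).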

How the results depend on the processing

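No paired analysis was possible because each group is 1 library. Leaving out a library was not possible either. Under thinning to 1000 UMIs, members past the bound numbered 2 rather than 4 in the whole libraries, 2 rather than 4 in proximal tubule-like nuclei and 1 rather than 2 in fibroblast-like nuclei, and pathway genes 6 rather than 11 in the whole libraries. Fewer genes were measured after thinning. With a bound of 2-fold, the members past it numbered 2 in thick ascending limb-like and 1 in fibroblast-like nuclei. In endothelium-like nuclei the count was 1, against 3 with doublets kept, 4 with at least 1000 genes and 4 with free RNA subtracted, and the cause was not tested.

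Ratios that turned to the other side of 1 after thinning were Igfbp3 in thick ascending limb-like (2.14), Igfbp5 in distal convoluted tubule-like (1.65), Igfbp4 in podocyte-like (0.577) and Igfbp5 in thin limb-like nuclei (0.909). Igfbp3 in mononuclear phagocyte-like nuclei turned with equal weight per nucleus (1.28) and with doublets kept (1.49). The cause was not tested. Thinning put 41 member ratios outside and 38 inside the counting interval of the reported value, against 4 outside and 85 inside with TMM scaling. In proximal tubule-like nuclei Pappa ran from 7.11 to 21.2, Igfbp5 from 0.477 to 0.545 and Igf2bp1 from 0.161 to 0.511 over all alternatives with a value. Some small classes had no value under some alternatives. Depth limited what could be read of Igf2bp1, with 43 nephrectomy and 110 sham UMIs in all, and of Pappa2, with 88 and 29.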
